A study of Mus musculus with 12 samples.

Results

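The genes Runx2, Sp7, Pparg, Cebpa, Twist1, Twist2, Snai1, Snai2, Zeb1 and Zeb2 encode 10 transcription factors that set or mark the fate of mesenchymal cells. They were chosen by name, as 2 regulators of bone (Runx2, Sp7), 2 of fat (Pparg, Cebpa) and 6 of the fibroblast state and of epithelial-mesenchymal transition (EMT; the Twist, Snai and Zeb genes), out of 21755 protein-coding genes on chromosomes 1 to 19 and X. For each gene the H3K27me3 sites were taken that overlapped its annotated gene body, extended by 20 kb on both sides, by at least 1 bp. This window held 9 of the 101389 sites in the deposited list.

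H3K27me3, trimethylated lysine 27 of histone H3, was measured by ChIP-seq in iMEF cells, which are immortalized mouse embryo fibroblasts. All groups carried a deletion of exon 4 in the endogenous Ash2l gene and lived on a lentivirally introduced human ASH2L fused to a mutant FKBP domain, so that the compound dTAG marks the fusion protein for degradation. ASH2L is a subunit of the COMPASS/KMT2 complexes, which methylate lysine 4 of histone H3. The 8 H3K27me3 libraries came from cells without dTAG and from cells treated with dTAG for 16 h, 24 h or 48 h, with 2 libraries in each of these 4 groups, and 4 input libraries came from untreated cells and cells treated for 48 h, with 2 in each. According to the study the histone ChIP-seq was done in NG3 cells, a single clone, so that all libraries share its integration and selection.

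The list used gives the position of each site and says nothing of single libraries. It therefore shows where H3K27me3 peaks were called across the samples, and holds no level, no replicate error and no difference between untreated and dTAG-treated cells. The depth obtained behind a site is unknown here, and the study states only a planned minimum per library. All values below are positions and overlaps of this pooled list. They carry no test, since genes are not replicates of a condition.

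Runx2 starts the osteoblast programme from mesenchymal progenitors and Sp7 (Osterix) acts after it. Pparg and Cebpa sustain each other's expression in adipocytes, and the same progenitors can enter either path. Twist, Snai and Zeb factors bind E-box sequences, repress epithelial genes such as Cdh1 and are typically active in fibroblasts. H3K27me3 is placed by Polycomb repressive complex PRC2, lies mainly over CpG-dense promoters of genes that are silent in a given cell type, and is known to keep lineage regulators of other fates off.

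Sites reached the window of 4 of the 10 genes, which were Sp7, Pparg, Cebpa and Twist2. Of all protein-coding genes 61.5% had a site in a window built the same way. A transcription start site (TSS) within 1 kb of a site was found for 3 of the 10 genes, Sp7, Pparg and Cebpa, against 26.9% of all protein-coding genes. The shares of members were thus near or below the background, and the set as a whole did not stand out for H3K27me3. By role, both fat regulators and 1 of the 2 bone regulators had a site at a TSS, and none of the 6 fibroblast or EMT regulators did. With 2, 2 and 6 genes this is a count and not a tested difference.

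**Figure D1:**
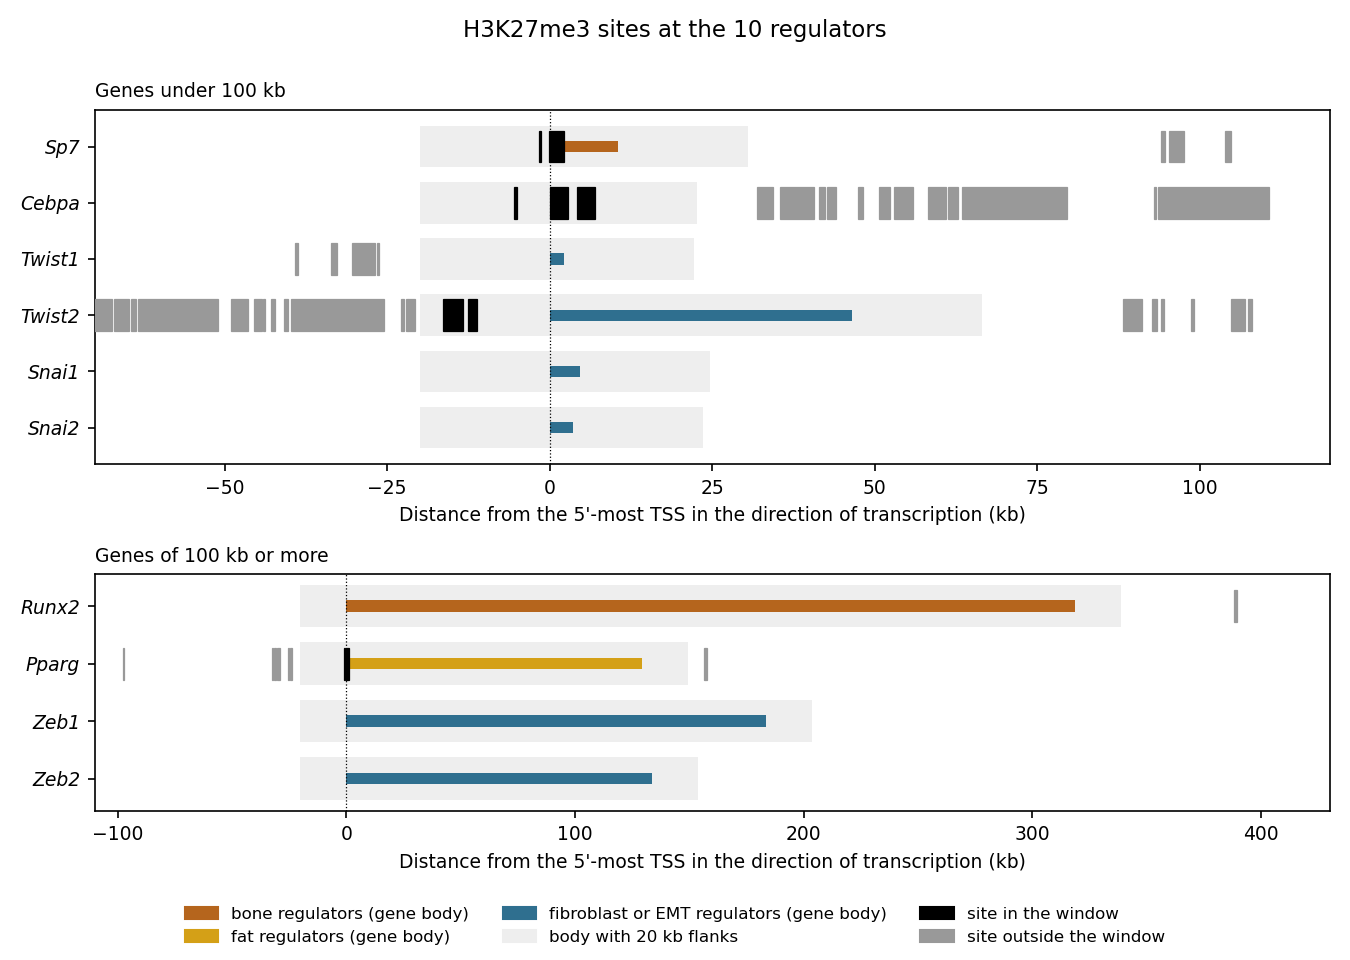
Position of the H3K27me3 sites relative to the TSS that lies furthest 5′ (x axis, kb, in the direction of transcription; dotted line at 0) for the 6 genes under 100 kb and the 4 longer genes, on separate scales. Coloured bars are gene bodies, pale bars the bodies with 20 kb flanks, black bars sites in the window and grey bars sites outside it; Sp7, Pparg and Cebpa have a site at 0, and Runx2, Twist1, Snai1, Snai2, Zeb1 and Zeb2 have none in the window.

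The promoter sequences of 5 of the genes show what these sites did and did not cover. They are RefSeq entries for GRCm38.p6, from 250 bases before to 50 bases after a start, read 5′ to 3′ on the strand of the gene, and capitals mark each CG dinucleotide (CpG). Such entries were found for 7 of the 10 genes, and Sp7, Snai2 and Zeb1 had none. Over 32619 promoter entries the median number of CpGs was 7. Shown are 2 of the 3 Pparg entries, 1 inside a site and 1 outside, the promoter of Cebpa at the edge of a site, and 3 promoters outside sites.
Pparg, first promoter: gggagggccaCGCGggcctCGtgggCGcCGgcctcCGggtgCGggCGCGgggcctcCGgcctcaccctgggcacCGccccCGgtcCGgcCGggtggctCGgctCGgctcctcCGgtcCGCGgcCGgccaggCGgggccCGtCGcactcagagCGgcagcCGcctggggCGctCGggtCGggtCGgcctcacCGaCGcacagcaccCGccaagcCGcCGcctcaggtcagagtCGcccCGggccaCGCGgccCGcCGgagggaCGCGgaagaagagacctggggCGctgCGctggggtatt
Pparg, Pparg2 promoter: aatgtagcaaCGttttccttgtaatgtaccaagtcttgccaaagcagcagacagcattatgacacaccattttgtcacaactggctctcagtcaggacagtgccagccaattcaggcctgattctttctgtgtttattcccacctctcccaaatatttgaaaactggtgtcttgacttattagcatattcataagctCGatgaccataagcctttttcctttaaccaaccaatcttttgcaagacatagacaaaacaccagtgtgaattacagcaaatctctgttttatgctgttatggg
Cebpa: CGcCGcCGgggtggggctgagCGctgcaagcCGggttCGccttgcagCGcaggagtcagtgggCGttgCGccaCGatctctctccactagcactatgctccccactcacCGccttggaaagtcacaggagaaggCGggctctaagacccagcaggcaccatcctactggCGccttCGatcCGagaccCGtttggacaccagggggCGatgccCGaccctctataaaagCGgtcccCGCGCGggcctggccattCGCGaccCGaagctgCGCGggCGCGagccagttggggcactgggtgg
Snai1: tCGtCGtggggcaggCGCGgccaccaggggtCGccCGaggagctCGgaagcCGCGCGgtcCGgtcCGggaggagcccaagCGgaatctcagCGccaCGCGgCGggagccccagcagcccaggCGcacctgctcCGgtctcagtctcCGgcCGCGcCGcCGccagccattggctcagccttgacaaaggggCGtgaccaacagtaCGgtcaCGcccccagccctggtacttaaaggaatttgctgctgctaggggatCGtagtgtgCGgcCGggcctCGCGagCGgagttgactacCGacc
Twist1: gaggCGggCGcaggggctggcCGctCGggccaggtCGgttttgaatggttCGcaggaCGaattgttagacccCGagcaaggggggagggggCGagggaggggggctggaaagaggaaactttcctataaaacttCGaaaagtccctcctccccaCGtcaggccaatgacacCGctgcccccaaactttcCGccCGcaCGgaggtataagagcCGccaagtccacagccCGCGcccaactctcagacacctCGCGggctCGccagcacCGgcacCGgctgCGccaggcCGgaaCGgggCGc
Runx2, distal promoter: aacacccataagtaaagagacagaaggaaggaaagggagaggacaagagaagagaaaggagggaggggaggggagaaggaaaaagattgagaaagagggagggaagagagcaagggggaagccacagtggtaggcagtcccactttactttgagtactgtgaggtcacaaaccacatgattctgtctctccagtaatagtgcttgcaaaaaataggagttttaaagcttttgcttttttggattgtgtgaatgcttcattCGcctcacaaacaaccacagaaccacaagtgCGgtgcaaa

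The first Pparg promoter, at chr6:115360894-115361193 on the plus strand, held 44 CpGs, a number that 2.26% of promoter entries reached, and all 300 bases lay in a site. The Pparg entry between the 2 shown, at chr6:115362099-115362398, held 13 CpGs and had 136 of its 300 bases in a site. The Pparg2 promoter, at chr6:115421816-115422115 on the plus strand, held 2 CpGs and no base of a site. At Cebpa, chr7:35119043-35119342 on the plus strand, 29 CpGs were present and 49 of the 300 bases lay in a site, all of them after the start. The promoters of Snai1 (chr2:167537945-167538244, plus strand, 34 CpGs) and Twist1 (chr12:33957421-33957720, plus strand, 27 CpGs) had CpG numbers close to that of Cebpa and no base in a site. The distal Runx2 promoter, chr17:44814578-44814877 on the minus strand, held 2 CpGs and no base in a site.

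Among the bone regulators, Sp7 had a site over its start and Runx2 had none in its window. Sp7 (chr15:102356606-102367182, minus strand, GRCm38) encodes a zinc finger factor without which osteoblasts do not form. A site of 2450 bp, chr15:102364907-102367356, ran from 174 bp upstream of the TSS furthest 5′ to 2275 bp downstream. Of its length 68.4% was intron, 24.5% exon and 7.1% upstream of the gene, and 21 bp were coding sequence. A second site of 328 bp, chr15:102368461-102368788, lay 1279 to 1606 bp upstream. Together both sites covered 2778 bp, 5.49% of the Sp7 window, and the next sites were 83517 bp beyond the 3′ end and 86483 bp upstream of the gene.

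Sites covered 58.7% of the 2 kb around the first TSS of Sp7, a share that 16.5% of protein-coding genes reached. The promoter of Sp7 was poor in CpGs. The 2 kb around its TSS held 28 CpGs, with an observed/expected ratio of 0.255, and the wider site had a ratio of 0.215. That is near the median ratio of 0.182 over the sites on chromosomes 1 to 19 and X. So the H3K27me3 site at Sp7 lay on sequence of ordinary CpG content for this list.

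Runx2 (chr17:44495987-44814797, minus strand, 318811 bp) encodes the Runt domain factor at the start of bone formation and has a distal and a proximal promoter that give isoforms with different N-termini. The annotated TSSs fell in 2 groups, 1 within 571 bp of the distal start and 1 from 78149 to 80104 bp downstream of it. Neither had a site within 1 kb. The nearest site was 69379 bp beyond the 3′ end of the gene, at chr17:44425390-44426608, and lay nearer to the start of Clic5 than to any start of Runx2. On the upstream side the next site was 312403 bp away. The distal promoter of Runx2 was as CpG-poor as that of Sp7, with a ratio of 0.276 and 24 CpGs in 2 kb. The bone regulators thus had similar CpG content at the first TSS and differed in the presence of a site.

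The fat regulators had sites at the first promoter of both genes. Pparg (chr6:115360951-115490399, plus strand, 129449 bp) encodes the nuclear receptor PPARγ, on which adipocyte formation depends. A site of 1404 bp, chr6:115360831-115362234, ran from 120 bp upstream to 1283 bp downstream of the first TSS. Intron made up 61.5% of it and exon 29.9%, with no coding base. A second site of 317 bp, chr6:115360129-115360445, lay 506 to 822 bp upstream, 386 bp from the first. Both covered 71.9% of the 2 kb around the first TSS, a share that 14.8% of protein-coding genes reached, and 1.02% of the whole Pparg window.

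The TSSs of Pparg fell in 5 groups, and sites were near the 2 at the 5′ end. The second group, 1341 to 1399 bp downstream of the first TSS, began 58 bp past the end of the wider site. No site lay within 1 kb of the starts at 22748, 61115 and 79024 bp. The start at 61115 bp is that of the Pparg2 promoter shown above, which gives the longer isoform typical of fat cells, and its nearest site was 59832 bp away. Within the gene H3K27me3 sites were therefore restricted to the CpG-dense 5′ end. The wider site had a CpG ratio of 0.734, and 0.319% of sites reached this ratio.

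Cebpa (chr7:35119293-35121928, plus strand, 2636 bp) is a gene without introns that encodes C/EBPα, a leucine zipper factor of terminal fat cell differentiation. A site of 2833 bp, chr7:35119294-35122126, covered 2635 of the 2636 bases of the gene and ended 198 bp after it. It held the 1077 bp of coding sequence and 189 CpGs, with a ratio of 0.707 that 0.401% of sites reached. A second site of 2727 bp, chr7:35123538-35126264, lay from 4245 to 6971 bp downstream of the TSS, and another of 499 bp, chr7:35113809-35114307, from 4986 to 5484 bp upstream. The 3 sites covered 6059 bp, 14.2% of the Cebpa window, which was the highest share among the 10 genes with flanks of 20 kb. With flanks of 50 kb Twist2 had the higher share, 20.5% against 17.9% at Cebpa.

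The site over Cebpa began 1 bp after the annotated TSS and left the CpG-dense sequence upstream of it free. Sites covered 1000 of the 2001 bases around that TSS, 1 base short of the amount counted as mostly covered. For the other annotated Cebpa TSS, 10 bp downstream, the amount was passed. With at least 50% of the promoter taken as the limit at the first TSS, 2 of the 10 genes (Sp7 and Pparg) were mostly covered, against 17.5% of protein-coding genes. Sites also overlapped Gm45091, an antisense RNA gene annotated across the start of Cebpa. No other protein-coding gene had a TSS in a site that touched a member.

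**Figure D2:**
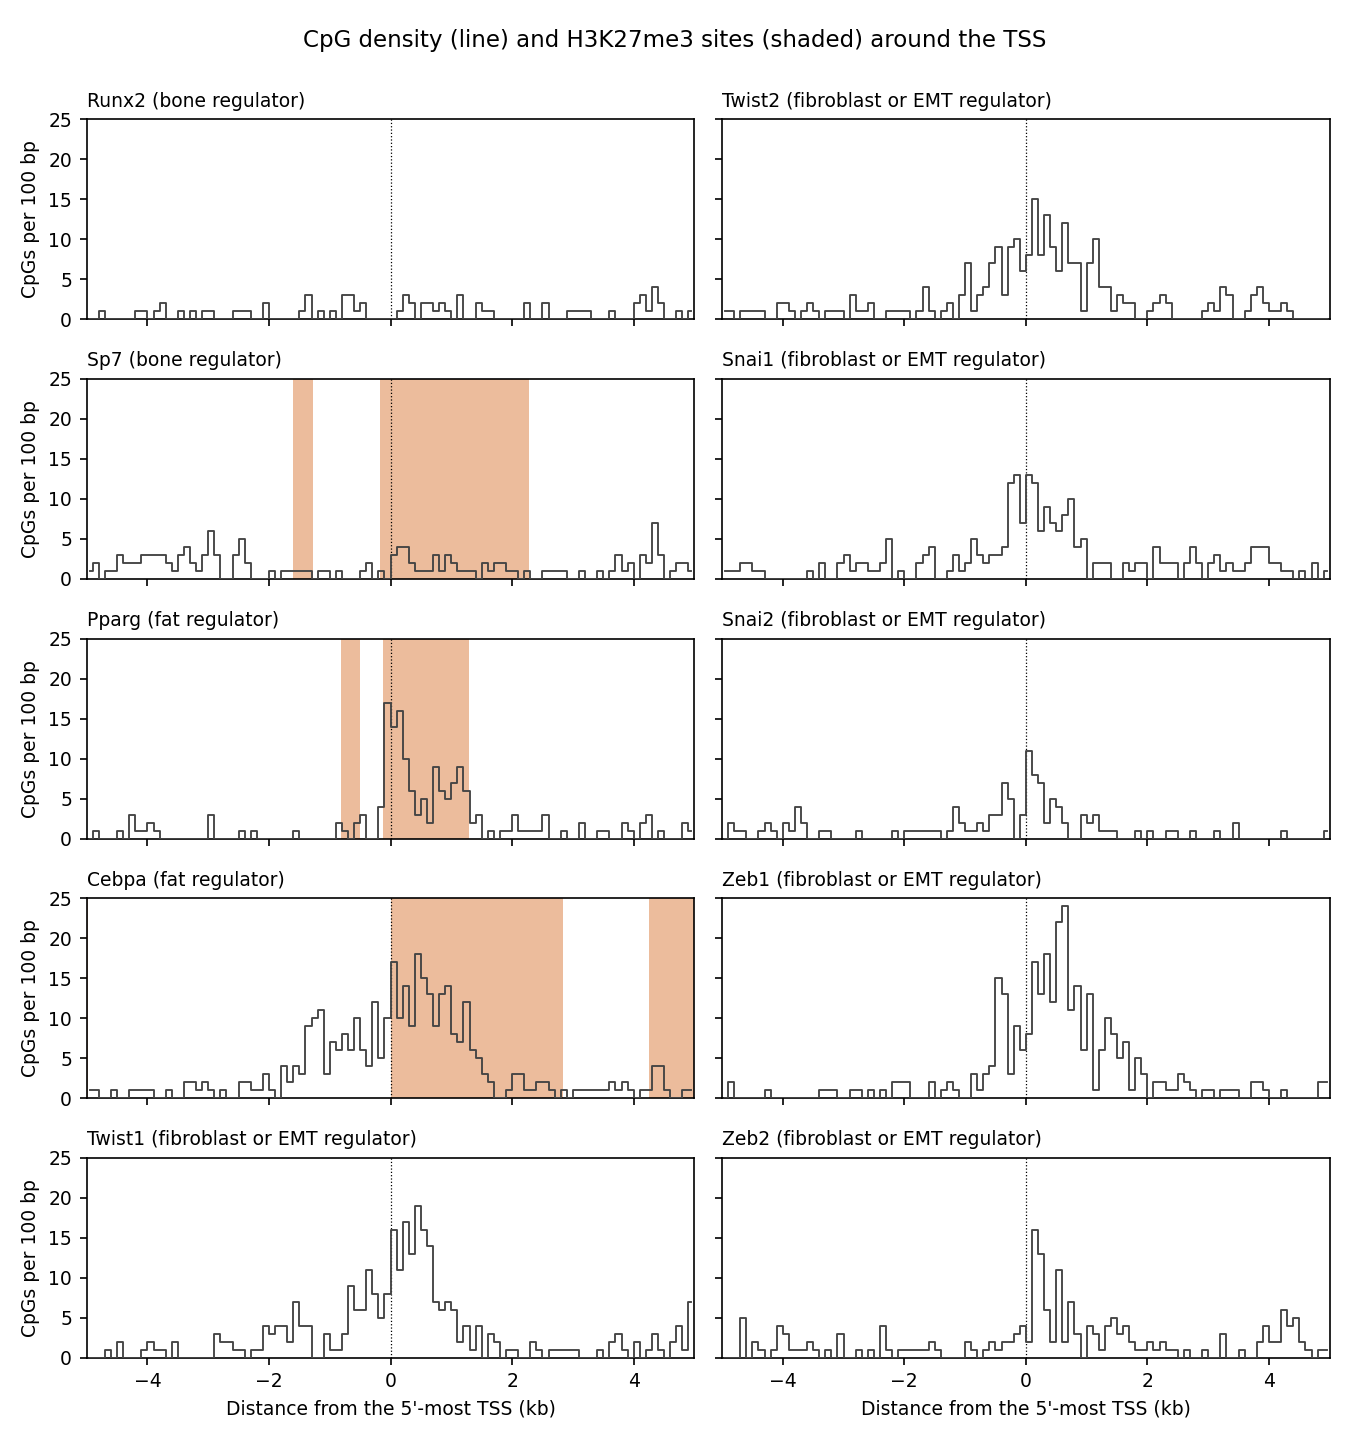
CpGs per 100 bp (y axis, line) from 5 kb upstream to 5 kb downstream of the TSS furthest 5′ (x axis, kb; dotted line at 0) for each of the 10 genes, with H3K27me3 sites shaded. The sites at Pparg and Cebpa lie over CpG peaks and that at Sp7 over low CpG density, while Twist1, Twist2, Snai1, Snai2, Zeb1 and Zeb2 have CpG peaks without a site.

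None of the 6 fibroblast or EMT regulators had a site within 1 kb of any annotated TSS, and 5 of them had none in the whole window. With 26.9% of all protein-coding genes having a site at a TSS and 61.5% a site in the window, counts of 0 and 1 among 6 genes are a description only. Twist1 (chr12:33957671-33959829, plus strand) encodes a bHLH factor of head mesenchyme and limb and had its nearest site 26306 bp upstream. That site was the last of 4 within 100 kb upstream, which together covered 5.1 kb, and the widest of them, 3489 bp, overlapped Ferd3l, the next protein-coding gene. On the other side of Twist1 the next site was 910476 bp away, within Hdac9. Twist1 was the gene just outside the 20 kb limit of the window, and Twist2 the gene just inside it.

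Twist2 (chr1:91801461-91848028, plus strand), the paralog of Twist1, had 2 sites upstream, at chr1:91785097-91788184 (3088 bp) and chr1:91788902-91790281 (1380 bp). They lay between 11180 and 16364 bp from the TSS and covered 5.16% of the Twist2 window, while the gene body and the promoter held no base of a site. These sites were the near end of a longer run. Within 100 kb upstream of Twist2, 16 sites covered 48.5 kb, the widest of 14339 bp, and no annotated gene overlapped any of them. The next of them lay 20704 bp upstream of the TSS, just outside the window.

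Snai1 (chr2:167538195-167542814, plus strand) and Snai2 (chr16:14705852-14709385, plus strand) encode the zinc finger repressors Snail and Slug, which bind the Cdh1 promoter. Their nearest sites were 180017 bp and 86851 bp upstream. Snai1 had no site within 100 kb on either side, and Snai2 had 1, of 284 bp. Zeb1 (chr18:5591860-5775467, plus strand) and Zeb2 (chr2:44983632-45117395, minus strand) encode long zinc finger and homeodomain repressors that act late in EMT. The nearest site to Zeb1 was 132686 bp upstream, and 1 site lay within 500 kb of the gene. At Zeb2 no site lay within 500 kb. The distances were 1131259 bp downstream and 4207119 bp upstream, so that Zeb2 lay in a stretch of 5472140 bp without a site. None of the 4 groups of Zeb1 TSSs or the 5 groups of Zeb2 TSSs had a site within 1 kb.

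Of the 10 genes 5 (Runx2, Snai1, Snai2, Zeb1 and Zeb2) had their nearest site more than 50 kb from the gene body. The same held for 25.1% of protein-coding genes, and the median distance over these genes was 8653 bp. A nearest site farther away than that of Zeb2 was found for 1.21% of genes, than that of Snai1 for 10.1%, than that of Zeb1 for 12.8%, than that of Snai2 for 17.8% and than that of Runx2 for 20.5%. The stretches free of sites around the other genes without a site in the window, with the gene included, were also measured. They spanned 537461 bp around Snai1, 700591 bp around Runx2, 938939 bp around Twist1, 983665 bp around Snai2 and 1126719 bp around Zeb1. Such stretches were not measured for all genes, so these lengths have no background to compare with. A long window has more room for a site than a short one. Of the 4 genes of at least 100 kb (Runx2, Pparg, Zeb1 and Zeb2) 1 had a site in its window, against 70.9% of all genes of that length.

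**Figure D3:**
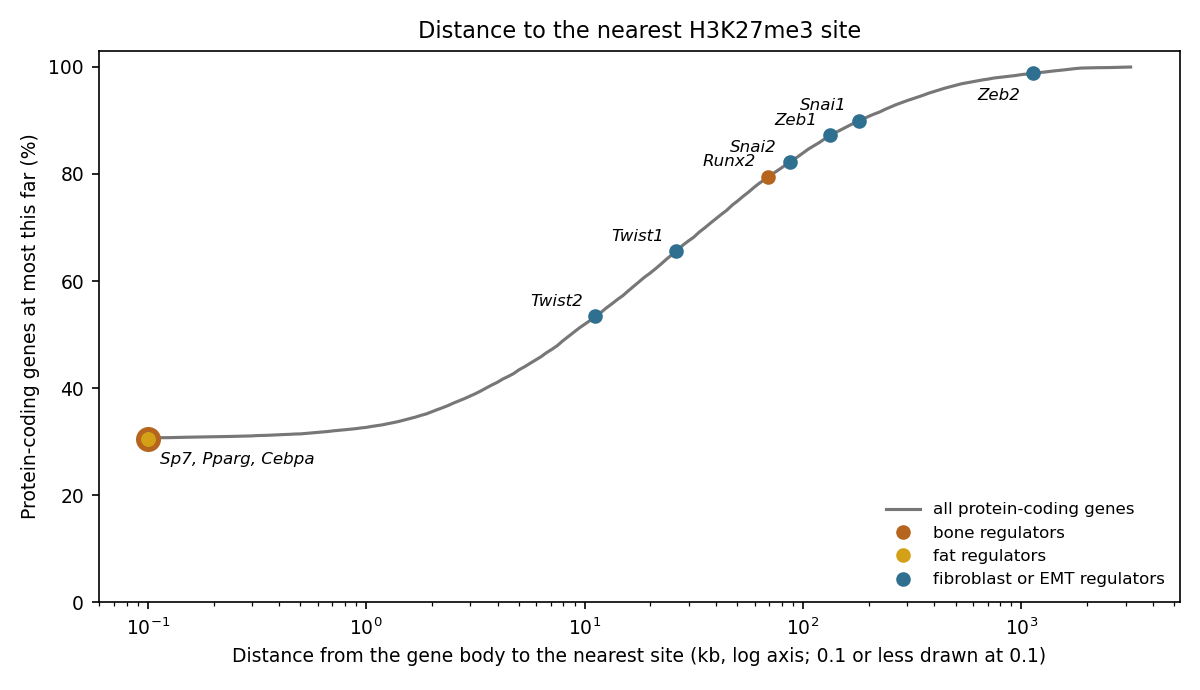
Share of protein-coding genes (y axis, %) whose nearest H3K27me3 site lies at most a given distance from the gene body (x axis, kb, log axis; values of 0.1 kb or less drawn at 0.1). Points mark the 10 genes by role, with Sp7 drawn larger beneath Pparg and Cebpa at the left end; Runx2, Snai2, Zeb1, Snai1 and Zeb2 lie at 69379 bp or more.

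The wider neighbourhood also differed between the genes. Within 500 kb of the gene body there were 113 sites at Cebpa, 81 at Twist2, 79 at Pparg, 47 at Sp7, 41 at Runx2, 31 at Snai1, 29 at Snai2, 6 at Twist1, 1 at Zeb1 and 0 at Zeb2, with a median of 52 over protein-coding genes. Downstream of Cebpa 14 sites, the one across its 3′ end included, covered 48 kb of the first 100 kb. The 2 widest of these, of 16195 and 17080 bp, overlapped Slc7a10, an amino acid transporter gene, and Lrp3, respectively. The fat regulators had more sites around them than the median gene, and Twist2 was the one fibroblast or EMT regulator of which this was also true.

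Summed over the windows, sites covered 3.67% of the bases at the fat regulators, 0.679% at the bone regulators and 0.727% at the fibroblast or EMT regulators. The median covered share per gene was 7.61%, 2.75% and 0%, and over all protein-coding genes it was 1.88%. These sums rest on few sites. Twist2 supplied the whole value of the fibroblast or EMT regulators and Sp7 that of the bone regulators. On the gene body alone sites covered nearly all of Cebpa, 21.5% of Sp7, 0.992% of Pparg and none of the other 7 genes. Downstream flanks held sites at Cebpa alone, with 14.6% of the 20 kb covered, and the upstream flank was covered most at Twist2, with 22.3%.

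CpG-rich promoters with a site and without one both occurred in this set. By the definition used here, a stretch of 500 bp with at least 55% GC and a CpG ratio of at least 0.75 within 1 kb of the first TSS, 8 of the 10 genes had a CpG-rich promoter, and the exceptions were Runx2 and Sp7. Later starts, such as the proximal promoter of Runx2, were not scored. Of these 8 genes 2 (Pparg and Cebpa) had a site at a TSS, which is near the 23.4% of all genes with a CpG-rich promoter. Twist1, with 184 CpGs in the 2 kb around the TSS, and Zeb1, with 202, were close to the 206 of Cebpa and had no site. Of the 9 sites in the windows 2, those over Pparg and Cebpa, had a CpG ratio above 0.7, and the ratios of the other 7 lay between 0.116 and 0.215. Of the 9 sites 6 were wider than the median site of 676 bp and 6 lay wholly outside the gene body.

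Other genes of the same lineages, which act before, beside or after these regulators, were taken from lists of named genes. These lists were chosen with earlier results of these data known. Of 18 genes of the fat programme 12 had a site at a TSS (66.7%, against 26.9% of all protein-coding genes), and 11 had the promoter mostly covered (against 17.5% of all). The whole 2 kb was covered at Ebf2, Klf15, Lep, Prdm16, Ucp1 and Zfp423. Lep encodes the hormone leptin, Ucp1 the uncoupling protein of brown fat, Prdm16 a regulator of brown fat identity, and Ebf2, Klf15 and Zfp423 other transcription factors of fat cells and their precursors. The sites at the TSSs reached 26040 bp at Zfp423 and 13535 bp at Prdm16, compared with 2833 bp at Cebpa and 1404 bp at Pparg. Markers of mature fat cells were found on both sides. Cfd, Lpl, Retn, Slc2a4, Plin1 and Cidec had a site at a TSS, with 98.6%, 91.3%, 75.4%, 74.3%, 57% and 29% of the promoter covered. Fabp4, Adipoq and Cd36 had none, and neither had the early factors Cebpb and Cebpd, whose nearest sites were 206725 and 282969 bp from a TSS.

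Of 16 genes of the bone programme 3 (Alpl, Sost and Spp1) had a site at a TSS (18.8%, below the 26.9% of all protein-coding genes), and 2 had the promoter mostly covered (against 17.5%). In the window, however, 12 of the 16 had a site (75.0%, above the 61.5% of all protein-coding genes). The same held for 14 of the 18 fat genes (77.8%). Alpl encodes the alkaline phosphatase of mineralizing cells and Sost sclerostin, made by osteocytes, and both had the whole 2 kb covered, by sites of 8209 and 37966 bp. The site near a Spp1 TSS was 200 bp wide, the smallest width in the list, and did not reach the promoter of the first TSS. Bglap and Ibsp, markers of mature osteoblasts, had their nearest sites 1297 and 1309 bp from a TSS.

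Fibroblast and epithelial genes were compared in the same way. The list holds no expression, so it gives no check of the identity of the cells. Of 17 fibroblast markers 1 had a site at a TSS, Pdgfra, where a site of 810 bp overlapped an annotated TSS and no base of the 2 kb around the first TSS was covered. In the window 6 of the 17 had a site (35.3%, against the 61.5% of all protein-coding genes). Sites covered 10.1% of the window at Pdgfrb, 9.62% at Col6a1, 7.9% at Pdgfra, 6.22% at Sparc, 5.61% at Postn and 3.9% at Lum. The other 11, among them Col1a1, Col1a2, Col3a1, Vim, Fn1 and Thy1, had none. Of 20 epithelial genes that are repressed in EMT, by contrast, 14 had a site at a TSS (70.0%, against 26.9% of all protein-coding genes) and 13 had the promoter mostly covered (against 17.5%). The 2 kb was covered whole at Cdh1, Cldn3, Cldn7, Crb3, Epcam and Esrp1, as it was at 6 others. Cdh1 encodes E-cadherin, and the site over its TSS was 2916 bp wide. Cldn3 and Cldn7 encode claudins of tight junctions, Epcam an epithelial adhesion protein, Crb3 a polarity protein and Esrp1 an epithelial splicing regulator. Krt8 and Krt18, keratins of simple epithelia, had no site in the window, and the nearest sites lay 32294 and 38664 bp from a TSS.

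**Figure D4:**
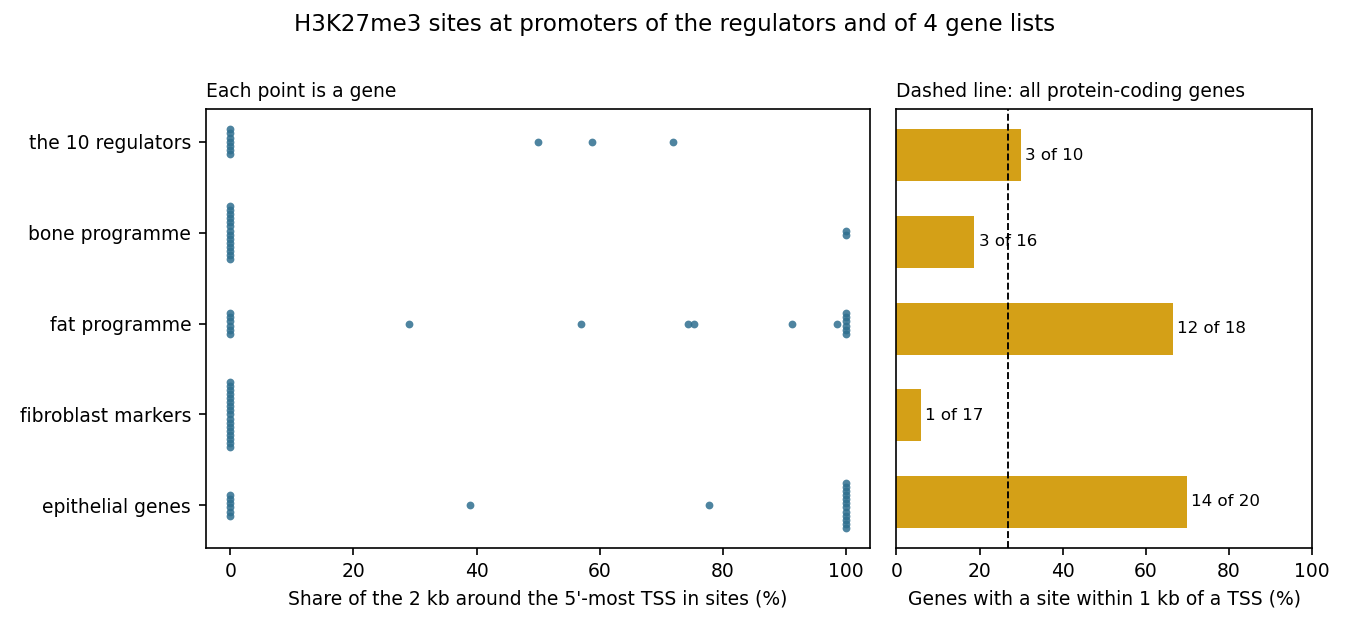
Left, share of the 2 kb around the TSS furthest 5′ that lies in H3K27me3 sites (x axis, %) for each gene of the 10 regulators and of 4 lists; right, share of genes with a site within 1 kb of any TSS (x axis, %), with counts. The dashed line is the 26.9% of all protein-coding genes, and the fat programme (12 of 18) and epithelial genes (14 of 20) lie to the right of it while the bone programme (3 of 16) and the fibroblast markers (1 of 17) lie to the left.

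Of the 6 fibroblast or EMT regulators 0 had a site at a TSS, beside 26.9% of all protein-coding genes. With 6 genes this count can show neither a difference from the background nor its absence. In the fat lineage both the regulators and 12 of 18 genes of the programme had sites at a TSS. The lists differ in CpG content, which was not held equal. A CpG-rich promoter was present for 13 of the 20 epithelial genes, 7 of the 18 fat genes, 3 of the 16 bone genes and 6 of the 17 fibroblast markers, and of these 12, 5, 1 and 1 had a site at a TSS, beside 23.4% of all genes with a CpG-rich promoter. Among the genes without a CpG-rich promoter a site at a TSS was found for 2 of 7 epithelial genes, 7 of 11 fat genes, 2 of 13 bone genes and 0 of 11 fibroblast markers. A site at a TSS was present for 5848 of all 21755 protein-coding genes and for 2500 of the 10700 with a CpG-rich promoter. The share over all genes without such a promoter is therefore above 26.9%. Whether any of these sites changed after loss of ASH2L was not tested, because the pooled list does not separate the time points. The study also lists sites it found changed at each time point, and those calls were not used here.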

How the data were processed

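Upstream steps by the authors were adapter trimming (Trim Galore), alignment to mm10, GRCm38.p6 (BWA), filtering (samtools), merging of replicates (Picard) and broad peak calling (MACS). The submitters' processing notes also name MACS2, deepTools and DESeq2. Tool versions, the cutoffs of peak calling and the rule that joined peaks of different samples are not given in the sources used here. The deposited list holds base positions (chromosome, start, end) of 101389 sites over all samples, with no count or score, and 0 columns of single-library values remained unused. Groups were taken from the sample titles and, for the treated inputs, from the time point given in their records. No test between groups could be made.

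Starts were read as counted from 0, and positions are printed counted from 1. Genes and TSSs were those of GENCODE release M21 on GRCm38, and sequence came from GRCm38.p6. Distances and directions are relative to the annotated TSS furthest 5′. Overlap needed 1 bp. The CpG ratio is the number of CpGs times the length over the product of C and G. TSSs of a gene up to 1000 bp apart were put in 1 group. Of the 50 bp stretches in the 2 kb around each member's TSS, sampled every 10 bp, 0 of 196 per gene recurred in patch or alternate sequences. Interval functions were tested on simulated sites. Analyses used Python 3.11.15, pandas 2.3.3 and numpy 2.4.6.

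The 10 genes and the lists were chosen with earlier results of these data known. Genes named are the members, their separate TSSs, and per list at most 6 genes with a TSS site in order of promoter coverage; other list genes are named as examples chosen after their values were seen. Alternatives set other site widths, merging gaps, flanks, TSS windows and start conventions.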

Additional observations from a re-analysis of the deposited data

How the results depend on the processing

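No paired analysis was possible because the list holds no value for any library, so replicate numbers have nothing to pair, and no replicate could be left out. The counts of members were recomputed under 25 alternatives, of which 24 stayed within 1.5 times the main count. With 6 kb around the TSS in place of 2 kb, 0 of the 10 genes had the promoter mostly covered, in place of 2, and the widest site at a start of these genes was 2833 bp. Reading starts as counted from 1, or taking the TSS with the highest coverage, raised this count to 3 by adding Cebpa. A flank of 50 kb added Twist1 to the genes with a site in the window (5 in place of 4), no flank or one of 10 kb removed Twist2 (3), and asking for the centre of the site within 1 kb of a TSS left 2 genes in place of 3, without Cebpa, so that 1 of the 2 fat regulators was counted. The count stayed at 4 when only sites were used whose nearest protein-coding TSS was that of the member, an alternative chosen after seeing the data. Covered shares depended on the flank. With 50 kb in place of 20 kb, Twist2 went from 5.16% to 20.5%, Twist1 from 0% to 4.99%, Pparg from 1.02% to 3.08%, Sp7 from 5.49% to 2.51% and Cebpa from 14.2% to 17.9%. With 10 kb, Twist2 was at 0%, Sp7 at 9.09% and Cebpa at 26.8%.

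The list gives presence and not level. Absence of a site means that no peak was called, at a depth known only as a planned minimum, and repeats cover 17.6% to 52.8% of the windows, with the highest share at Snai2. The part of depth or repeats in the absence of sites was not tested.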

Other observations

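The paralogs of the 10 genes differed among themselves in H3K27me3 sites. They were chosen after the values of the 10 genes had been seen. Of 17 paralogs 5 (Ppara, Sp5, Sp6, Sp8 and Sp9) had a site at a TSS (29.4%, against 26.9% of all protein-coding genes), and in all 5 the whole 2 kb around the first TSS was covered. Ppara, the PPAR of liver and other tissues with high fatty acid oxidation, had a TSS site of 33351 bp, wider than the 1404 bp site at Pparg. Ppard, the third PPAR, had none, and its nearest site was 70274 bp from a TSS. Sp5, Sp6, Sp8 and Sp9 had TSS sites of 9073 to 15110 bp, and Sp1, Sp2, Sp3 and Sp4 had none. Cebpb, Cebpd and Cebpg had no site in the window. Cebpg (chr7:35046422-35056573) lies upstream of Cebpa on the same chromosome. Its nearest site, 57236 bp from a TSS, was the 499 bp site upstream of Cebpa. Cebpe had 8 sites over 17.5% of its window, the nearest 2202 bp from a TSS. Runx1 and Runx3 had no site within 1 kb of a TSS, with the nearest at 3716 and 2794 bp, but sites covered 22.1% and 10.3% of their windows.

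Regulators of other mesenchymal fates were looked at in the same way. Of 7 genes for cartilage and muscle 3 (Myod1, Sox5 and Sox6) had a TSS site (42.9%, against 26.9% of all protein-coding genes) and the whole 2 kb covered (17.5% of all genes had at least 50% covered). At Myod1, the muscle determination factor, the site was 14413 bp wide and sites covered 85.1% of the window. The other muscle regulators, Myf5, Myf6 and Myog, had no site at a TSS, and the nearest sites were 212848, 221451 and 5619 bp from a TSS. Sox9, the first regulator of cartilage, had no site at a TSS.

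The miR-200 microRNAs, known repressors of Zeb1 and Zeb2 and absent from most mesenchymal cells, are transcribed from 2 clusters. The cluster of Mir200b, Mir200a and Mir429 lay wholly within 1 site of 13555 bp, chr4:156051203-156064757. Their hairpins are at chr4:156055681-156055750, chr4:156054896-156054985 and chr4:156053905-156053987, on the minus strand. The hairpins of Mir200c (chr6:124718322-124718390) and Mir141 (chr6:124717914-124717985), also on the minus strand, had no site within 5 kb, and the nearest was 54903 and 55308 bp away. The mature 3p sequences are shown because they fall in 2 seed groups, which both clusters share. Capitals mark the seed, bases 2 to 8, in the RefSeq sequences for GRCm38.p6.
miR-200a-3p: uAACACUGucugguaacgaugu
miR-141-3p: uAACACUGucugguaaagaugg
miR-200b-3p: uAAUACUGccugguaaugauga
miR-200c-3p: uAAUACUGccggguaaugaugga
miR-429-3p: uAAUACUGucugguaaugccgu
The seed AACACUG belongs to miR-200a-3p, inside the site, and to miR-141-3p, outside it. The seed AAUACUG belongs to miR-200b-3p and miR-429-3p, inside the site, and to miR-200c-3p, outside it. No microRNA was measured.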
